A study of Sus scrofa with 23 samples.

Results

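The genes described here are the amino acid transporter families of the pig coronary artery, as RNA levels in graded atherosclerotic segments. The members are the gene names of solute carrier families SLC1, SLC3, SLC6, SLC7, SLC36, SLC38 and SLC43, without SLC6A6, a taurine carrier. Family and number in the gene name chose them, and the rule uses no measured value. It was set with earlier results of these data known. The rule found 45 genes among the 35228 names of the authors' deposited tables. Segments of 3 mm came from Yorkshire swine, all of them hypercholesterolemic, and some of them diabetic as well, and each segment was graded by histopathology. The 5 groups are mild (4 libraries), moderate (4) and severe (5) segments of swine without diabetes, and moderate (6) and severe (4) segments of diabetic swine. No mild group with diabetes was analysed here. Which animal gave which segment is not stated, so p-values measure the spread between segments. They are too small where segments of the same group share an animal. In comparisons of grade they can be too large where an animal gave segments to both groups.

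Amino acids cross membranes on carriers that differ in what they move and in what drives them. SLC7 light chains exchange amino acids and reach the cell surface bound to an SLC3 heavy chain, while the SLC7 cationic carriers work alone. SLC38 and SLC1 members use the sodium gradient to concentrate glutamine, small neutral amino acids or glutamate. SLC36A1 and SLC38A9 sit on the lysosome, where they move amino acids out of it or report its content to the growth kinase complex mTORC1. The SLC6 family also holds carriers of creatine, betaine and GABA.

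Each value below is either a group mean of normalized counts, which is a read count divided by a size factor of its library, or a log2 difference between 2 groups. The authors deposited group means and DESeq2 results for 6 comparisons and the values of single libraries were not used here, so whether single segments of 2 groups overlap cannot be given. Levels are compared within a gene and not between genes, since the counts are not per length. Standard errors (SE) are those of the authors' fit, and a gene is called where its adjusted p is under 0.05. In the low means at most 1 step per library was sought, and 23 were found, which gave approximate totals of 6.72 M to 15 M counts. The labels of severe non-diabetic replicate 5 conflict, since its characteristics call it moderate and diabetic. It was kept in the group its title names, and the authors' standard errors count it there. Which label is right was not tested, and each comparison with severe non-diabetic segments rests on it.

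The 45 genes lie on 16 chromosomes. Of them, 29 averaged 10 or more across the 5 groups, 16 averaged less and 7 had a mean under 1. SLC6A18, a kidney and gut carrier of neutral amino acids, was at 0 in all 5 groups of the authors' deposited tables. At this depth 3 counts over a group would give a mean of 0.474 to 0.757. Among the SLC6 family 4 of 15 members had a mean of at least 10, against 7 of 8 in SLC38, 7 of 9 in SLC7 and 5 of 6 in SLC1. In all, 17 of the 45 were called in at least 1 of the 6 deposited comparisons, 6 of them in 1 comparison, 8 in 2, 2 in 3 and SLC7A7 in 4. The share of all genes called in at least 1 of the 6 was not computed, so this count has no background. Shares for each comparison are given below.

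**Figure D1:**
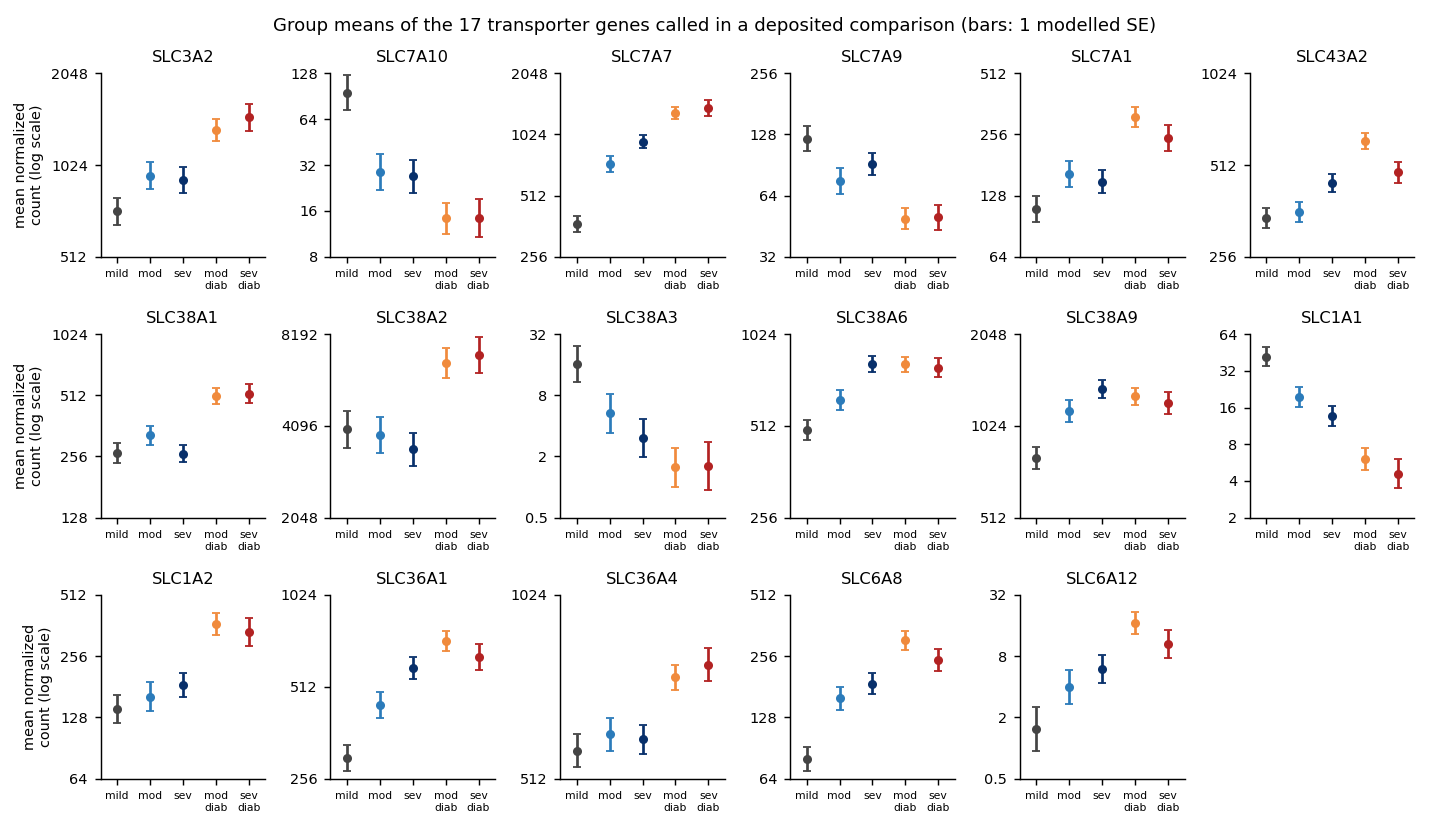
Group means of normalized counts on a log scale for the 17 transporter genes called in a deposited comparison, in mild, moderate (mod) and severe (sev) segments without and with diabetes (diab). Points are the authors' group means and bars are 1 SE on the log2 scale solved from the deposited standard errors. SLC7A7 is lowest in mild segments at 370 and highest in severe diabetic ones at 1385, while SLC1A1 falls from 41.9 to 4.59.

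Most of the transporters called with diabetes were higher. In moderate segments 11 of the 36 members with an adjusted p were higher with diabetes and 1 was lower, which is 30.6% and 2.78%. The background over all genes in that comparison was 8.20% higher and 8.46% lower. In severe segments 6 of 33 were higher and 2 lower, 18.2% and 6.06%, beside a background of 5.75% higher and 4.92% lower. The median log2 difference of the 36 members was 0.39 in moderate segments and that of the 33 was 0.28 in severe ones, beside -0.03 and 0.01 over all genes. Of the 11 and the 6 higher members 5 are the same genes, and they are SLC7A7, SLC38A1, SLC38A2, SLC1A2 and SLC36A4. SLC1A1 was the 1 member lower in both grades. When the severe comparison was recentred on its median gene, 3 members stayed higher and 2 lower. These counts rest on 4 moderate segments without diabetes against 6 with it, and on 5 severe against 4.

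Averaging both grades narrows the error, so a mean diabetes contrast was computed from the authors' log2 values and their errors, with a Wald test, wherever a gene averaged 10 or more. Its error treats the groups as independent. That error and its p can be too small where an animal gave segments to both grades. It called 13 of 29 members higher and 3 lower, 44.8% and 10.3%. Over all genes the background of that contrast was 17.1% higher and 15.4% lower. Of the 29 members 23 lay above 0, with a median log2 difference of 0.36, beside 0.02 over all genes.

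**Figure D2:**
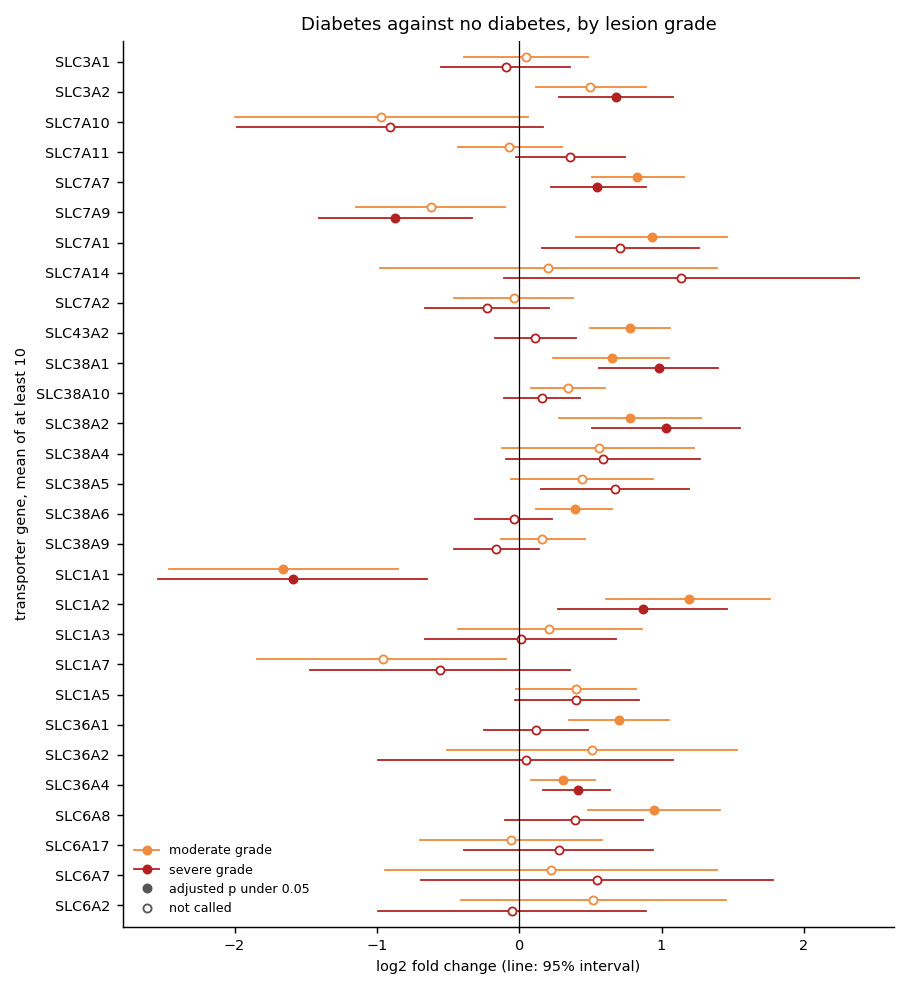
Log2 fold change of diabetes against no diabetes in moderate and in severe segments, for the 29 transporter genes with a mean of at least 10, ordered by role. Lines are 95% intervals and filled points have an adjusted p under 0.05. SLC38A1, SLC38A2, SLC1A2, SLC7A7 and SLC36A4 are filled to the right of 0 in both grades, and SLC1A1 is filled to the left in both.

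SLC7A7 and its heavy chain SLC3A2 were both higher with diabetes in severe segments. SLC7A7 is the light chain that exchanges cationic for neutral amino acids with sodium, and in humans its loss causes lysinuric protein intolerance, which also affects macrophages. The authors' deposited tables gave SLC7A7 means of 370 in mild, 734 in moderate and 943 in severe segments without diabetes, and of 1307 in moderate and 1385 in severe diabetic segments. The lowest mean was that of mild segments and both diabetic means lay above every non-diabetic one. With diabetes SLC7A7 rose 1.78-fold in moderate segments (log2 0.83 ± 0.16 SE, adjusted p = 2.56e-05) and 1.47-fold in severe ones (log2 0.55 ± 0.17 SE, adjusted p = 0.0184), per the authors' deposited tables. The severe call was lost on recentring, with an adjusted p of 0.0517. SLC3A2, the CD98 heavy chain that carries SLC7A7 and other light chains to the surface, had means of 721, 946 and 914 without diabetes and 1337 and 1467 with it in the authors' deposited tables. It rose 1.60-fold with diabetes in severe segments (log2 0.68 ± 0.20 SE, adjusted p = 0.0145), and in moderate segments its log2 difference was 0.50 ± 0.20 SE with an adjusted p of 0.0583, per the authors' deposited tables. The mean diabetes contrast called it higher at log2 0.59 ± 0.14 SE (adjusted p = 0.000256).

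No other light chain among the members was called higher with diabetes. SLC7A11, the cystine and glutamate exchanger that feeds glutathione synthesis, had means of 166, 222 and 186 without diabetes and 212 and 238 with it in the authors' deposited tables. Its mean diabetes contrast was log2 0.15, with a 95% interval of -0.12 to 0.41 and an adjusted p of 0.433. SLC7A9, a cystine carrier of kidney and gut that pairs with SLC3A1, had means of 122, 75.8 and 91.1 without diabetes and 49.3 and 50 with it in the authors' deposited tables. It fell by 0.87 ± 0.28 SE on the log2 scale with diabetes in severe segments (adjusted p = 0.0249), its moderate value was -0.62 ± 0.27 SE (adjusted p = 0.0933), per the authors' deposited tables, and in the mean diabetes contrast it fell by 0.75 ± 0.19 SE (adjusted p = 0.00084). SLC3A1, its heavy chain, stayed between 52.9 and 68.5 in all 5 groups of the authors' deposited tables, and its mean diabetes contrast was log2 -0.02 with a 95% interval of -0.34 to 0.29.

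SLC7A10 is a sodium-independent exchanger of small neutral amino acids known from neurons and from fat cells. Its group means in the authors' deposited tables were 95.6 in mild, 28.8 in moderate and 27.1 in severe segments, and 14.3 and 14.4 in moderate and severe diabetic ones. The mild mean was more than 3 times any other. It was 3.40-fold lower in moderate than in mild segments (log2 -1.76 ± 0.55 SE, adjusted p = 0.0356) and 3.53-fold lower in severe ones (log2 -1.82 ± 0.52 SE, adjusted p = 0.00788), per the authors' deposited tables. The moderate call was lost when adjusted over all genes with a p, at 0.0575. In the mean diabetes contrast SLC7A10 fell by 0.94 ± 0.38 SE on the log2 scale (adjusted p = 0.0434), and with a minimum mean of 1 in place of 10 the adjusted p was 0.0517.

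Of the cationic carriers SLC7A1 was called and SLC7A2 was not. SLC7A1, the widely expressed arginine and lysine carrier, had means of 110, 163 and 150 without diabetes and 312 and 246 with it in the authors' deposited tables. It rose 1.91-fold with diabetes in moderate segments (log2 0.93 ± 0.27 SE, adjusted p = 0.00722), and its severe value was log2 0.71 ± 0.28 SE with an adjusted p of 0.0849, per the authors' deposited tables. In the mean contrast it was higher by log2 0.82 ± 0.20 SE (adjusted p = 0.000263). SLC7A2, which in mice supplies arginine to the inducible nitric oxide synthase and arginase of activated macrophages, had means of 819 to 1088 across the 5 groups of the authors' deposited tables. Its mean diabetes contrast was log2 -0.13, with a 95% interval of -0.44 to 0.17. The difference between both carriers was not tested.

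SLC38A1 and SLC38A2 import glutamine and other small neutral amino acids with sodium, and SLC38A2 is a known target of the cell's response to amino acid shortage. SLC38A2 had means of 3988, 3822 and 3434 without diabetes and 6578 and 6999 with it in the authors' deposited tables. SLC38A1 had means of 266, 325 and 264 without diabetes and 510 and 522 with it in the same deposited tables of the authors. For both genes the 2 diabetic means lay together and above the 3 non-diabetic ones. With diabetes SLC38A2 rose 1.72-fold in moderate segments (log2 0.78 ± 0.25 SE, adjusted p = 0.0185) and 2.04-fold in severe ones (log2 1.03 ± 0.26 SE, adjusted p = 0.00372), per the authors' deposited tables. SLC38A1 rose 1.57-fold (log2 0.65 ± 0.21 SE, adjusted p = 0.0163) and 1.98-fold (log2 0.98 ± 0.21 SE, adjusted p = 0.000388) in the same comparisons, per the authors' deposited tables. The 2 genes are neighbours on chromosome 5 of Sscrofa11.1, with SLC38A1 at chr5:77009840-77076723 and SLC38A2 at chr5:77113491-77127715, 36.8 kb apart. SLC38A4, a carrier of neutral and cationic amino acids, is the next member on that chromosome, 284 kb beyond SLC38A2, and its mean diabetes contrast was log2 0.57 with an adjusted p of 0.0582.

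Of the remaining SLC38 members SLC38A5 and SLC38A10 were called in the mean diabetes contrast alone. SLC38A5, a sodium-coupled carrier of glutamine and glycine, was higher by log2 0.56 ± 0.18 SE (adjusted p = 0.0113). SLC38A10 was higher by log2 0.25 ± 0.10 SE (adjusted p = 0.0319), which recentring moved to 0.111. SLC38A3, the glutamine carrier of liver and kidney, had means of 16.3, 5.31 and 3.01 without diabetes and 1.57 and 1.60 with it in the authors' deposited tables. It was 5.20-fold lower in severe than in mild segments (log2 -2.38 ± 0.85 SE, adjusted p = 0.044), per the authors' deposited table, a call lost when adjusted over all genes with a p, at 0.0649. For scale, 3 counts over the severe group would give a mean of 0.594.

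Of the glutamate carriers SLC1A2 rose with diabetes and SLC1A1 fell, and no other was called. SLC1A2, which clears glutamate from the synapse in brain, had means of 141, 162 and 185 without diabetes and 367 and 337 with it in the authors' deposited tables. It rose 2.28-fold with diabetes in moderate segments (log2 1.19 ± 0.29 SE, adjusted p = 0.00113) and 1.83-fold in severe ones (log2 0.87 ± 0.30 SE, adjusted p = 0.0435), per the authors' deposited tables. The severe call was lost when adjusted over all genes with a p, at 0.0624, and on recentring, at 0.0752. SLC1A1, which also takes up cysteine, had means of 41.9, 19.6 and 13.6 without diabetes and 6.04 and 4.59 with it in the authors' deposited tables. Its means descended with grade and were lowest in both diabetic groups. It was 3.09-fold lower in severe than in mild segments (log2 -1.63 ± 0.37 SE, adjusted p = 0.000294), per the authors' deposited table. With diabetes it was 3.15-fold lower in moderate segments (log2 -1.66 ± 0.41 SE, adjusted p = 0.00109) and 3.02-fold lower in severe ones (log2 -1.59 ± 0.48 SE, adjusted p = 0.0163), per the authors' deposited tables.

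SLC1A5, the exchanger that brings glutamine into proliferating cells, had means of 455, 501 and 526 without diabetes and 659 and 696 with it in the authors' deposited tables. Its log2 difference with diabetes was 0.40 in each grade, not called in either, per the authors' deposited tables. The mean diabetes contrast called it at log2 0.40 ± 0.16 SE (adjusted p = 0.0327), and recentring moved the adjusted p to 0.0735. SLC1A3, the glial glutamate carrier, had its highest mean in mild segments, 697, against 432 to 502 elsewhere in the authors' deposited tables, and was called in no comparison. SLC1A7, a glutamate carrier of the retina, had a mean diabetes contrast of log2 -0.76 ± 0.32 SE with an adjusted p of 0.0553.

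SLC38A9 and SLC36A1, named above as lysosomal, were both higher in severe than in mild segments, and whether other members also sit on the lysosome was not examined. SLC38A9, a lysosomal arginine sensor that signals to mTORC1, had means of 805, 1142 and 1354 in mild, moderate and severe segments without diabetes, and 1279 and 1213 with diabetes, in the authors' deposited tables. The mild mean was the lowest, and the diabetic means lay between those of moderate and severe segments without diabetes. It was 1.42-fold higher in moderate than in mild segments (log2 0.50 ± 0.16 SE, adjusted p = 0.0479) and 1.68-fold higher in severe ones (log2 0.75 ± 0.16 SE, adjusted p = 5.6e-05), per the authors' deposited tables. The moderate call was lost when adjusted over all genes with a p, at 0.077, and on recentring, at 0.0529. Its mean diabetes contrast was log2 0.00, with a 95% interval of -0.21 to 0.21.

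SLC36A1 moves small neutral amino acids with protons, at the lysosome and at the surface of gut cells. Its means in the authors' deposited tables were 299, 445 and 590 without diabetes and 723 and 641 with it. It was 1.97-fold higher in severe than in mild segments (log2 0.98 ± 0.19 SE, adjusted p = 9e-06), and 1.62-fold higher with diabetes in moderate segments (log2 0.70 ± 0.18 SE, adjusted p = 0.00179), per the authors' deposited tables. With diabetes in severe segments its log2 difference was 0.12 ± 0.18 SE (adjusted p = 0.755), per the authors' deposited table. SLC36A4, a high-affinity carrier of proline and tryptophan, had means of 569 to 605 without diabetes and 750 and 787 with it in the authors' deposited tables. Its log2 differences with diabetes were 0.31 ± 0.12 SE (adjusted p = 0.0486) in moderate and 0.41 ± 0.12 SE (adjusted p = 0.0127) in severe segments, per the authors' deposited tables. Recentring moved these to 0.0845 and 0.0561, and the mean diabetes contrast called it at log2 0.36 ± 0.08 SE (adjusted p = 0.00018). SLC36A2 and SLC36A3 overlap by 253 bases in the reference, so reads there could count to either, and neither was called.

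SLC43A2, a uniporter of branched-chain and aromatic amino acids, had means of 343, 359 and 448 without diabetes and 613 and 484 with it in the authors' deposited tables. It rose 1.72-fold with diabetes in moderate segments (log2 0.78 ± 0.14 SE, adjusted p = 3.68e-06), and its severe value was log2 0.11 with a 95% interval of -0.17 to 0.40, per the authors' deposited tables. The difference of the 2 diabetes contrasts was log2 -0.67 ± 0.20 SE with an unadjusted p of 0.00106 and an adjusted p of 0.599.

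In the SLC6 family the creatine carrier SLC6A8 had means of 79.9, 159 and 187 without diabetes and 306 and 245 with it in the authors' deposited tables. It was 1.99-fold higher in moderate than in mild segments (log2 0.99 ± 0.27 SE, adjusted p = 0.00961) and 2.35-fold higher in severe ones (log2 1.23 ± 0.26 SE, adjusted p = 6.27e-05), per the authors' deposited tables. With diabetes it rose 1.93-fold in moderate segments (log2 0.95 ± 0.24 SE, adjusted p = 0.0015), and in severe ones its log2 difference was 0.39 ± 0.25 SE (adjusted p = 0.345), per the authors' deposited tables. SLC6A12, which imports betaine and GABA and is induced by osmotic stress in kidney, had means of 1.52, 4 and 5.98 without diabetes and 16.9 and 10.5 with it in the authors' deposited tables. It was 4.18-fold higher with diabetes in moderate segments (log2 2.06 ± 0.66 SE, adjusted p = 0.0154), and in severe ones its log2 difference was 0.83 ± 0.64 SE (adjusted p = 0.456), per the authors' deposited tables. Its neighbour SLC6A13 starts 0.291 kb away on chromosome 5. SLC6A17, a vesicular carrier of neutral amino acids in neurons, had means of 276 to 402 in the authors' deposited tables and was not called. SLC6A7, the brain proline carrier, and SLC6A2, the noradrenaline carrier of sympathetic nerves, were not called either, at means of 9.45 to 17.3 and 14.7 to 21 in the authors' deposited tables.

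Lesion grade was compared without diabetes. Against mild segments, in moderate segments 3 of the 31 testable members were higher and 1 lower, 9.68% and 3.23%, and the background was 3.56% higher and 1.08% lower. In severe segments 5 of 32 were higher and 3 lower, 15.6% and 9.38%, and the background was 7.19% higher and 4.80% lower. The 3 higher in moderate segments, SLC7A7, SLC6A8 and SLC38A9, are among the 5 higher in severe ones, and both comparisons share the mild segments. SLC7A7 was 1.99-fold higher in moderate (log2 0.99 ± 0.18 SE, adjusted p = 8.89e-06) and 2.55-fold higher in severe segments (log2 1.35 ± 0.17 SE, adjusted p = 1.47e-12), per the authors' deposited tables. SLC38A6, a less studied member of that family, was 1.65-fold higher in severe segments (log2 0.72 ± 0.14 SE, adjusted p = 1.64e-05), and with diabetes 1.31-fold higher in moderate ones (log2 0.39 ± 0.14 SE, adjusted p = 0.0305), per the authors' deposited tables. In severe segments its log2 difference with diabetes was -0.04 ± 0.14 SE (adjusted p = 0.904), per the authors' deposited table. Its means were 495, 621 and 817 without diabetes and 815 and 795 with it in the authors' deposited tables. Recentring moved the diabetes call of SLC38A6 to an adjusted p of 0.0503. The median log2 difference of the members was 0.13 in moderate and 0.06 in severe segments, beside 0.00 and -0.03 over all genes.

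**Figure D3:**
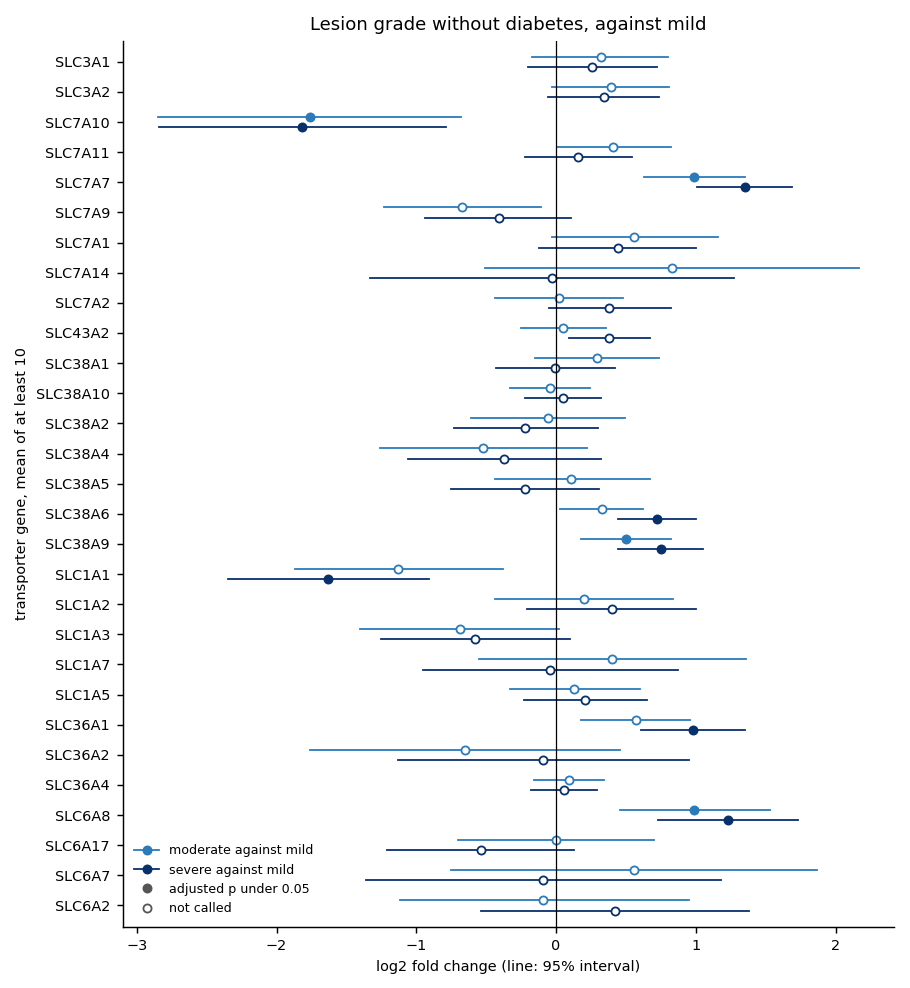
Log2 fold change of moderate and of severe against mild segments without diabetes, for the 29 transporter genes with a mean of at least 10, ordered by role. Lines are 95% intervals and filled points have an adjusted p under 0.05. SLC7A7, SLC6A8 and SLC38A9 are filled to the right of 0 in both comparisons, SLC38A6 and SLC36A1 in severe segments, and SLC7A10 is filled to the left in both.

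Severe against moderate segments called no member. Without diabetes DESeq2 called 0 of 32 members in the authors' deposited table, with 5 at an unadjusted p under 0.05, and the background was 0.00507% higher and 0.0152% lower. The smallest p among members was that of SLC38A6 (log2 0.39 ± 0.14 SE, p = 0.00532, adjusted p = 0.705) and the next that of SLC43A2 (log2 0.33 ± 0.15 SE, adjusted p = 1), per the authors' deposited table. With diabetes DESeq2 called 0 of 44, with 1 at an unadjusted p under 0.05, and the background was 0.00332% higher and 0% lower. That member was SLC43A2 (log2 -0.34 ± 0.14 SE, p = 0.0152, adjusted p = 1), followed by SLC6A8 (log2 -0.32 ± 0.24 SE, adjusted p = 1), per the authors' deposited table. The computed mean of both severe against moderate contrasts called 0 of 29 members with a Wald test, none at an unadjusted p under 0.05, and its background was 0% higher and 0% lower.

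Whether diabetes acted differently in severe and in moderate segments was tested as the difference of the 2 diabetes contrasts. No member of 29 was called, with 3 at an unadjusted p under 0.05, and the background was 0.00572% higher and 0.00572% lower. The first was SLC43A2, given above. The others were SLC36A1 (log2 -0.58 ± 0.26 SE, adjusted p = 0.999) and SLC38A6 (log2 -0.43 ± 0.19 SE, adjusted p = 0.999) by the Wald test. A gene called with diabetes in one grade and not in the other is therefore not shown to differ between grades.

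Fewer cells of a type and less RNA per cell cannot be told apart in whole segments, so marker lists were read beside the transporters. The summed macrophage list was 14092 in mild, 19947 in moderate and 26484 in severe segments, and 27915 and 30913 in moderate and severe diabetic ones, in the authors' deposited tables. Of its 13 matched genes 5 were higher in moderate against mild segments, beside 3.56% of all genes, and 7 were higher and 1 lower in severe ones, beside 7.19% and 4.80%. With diabetes 6 of the 13 were higher in moderate segments, beside 8.20% of all genes, and 2 in severe ones, beside 5.75%. None of the 13 was at 0 in a group mean. Its genes did not all move together. The scavenger receptor MSR1 had means of 576, 2182 and 2552 without diabetes and 4383 and 5192 with it, while the mannose receptor MRC1 had 2182, 1189 and 1040 without and 1121 and 1462 with it, in the authors' deposited tables. The complement gene C1QC went from 3036 in mild to 6356 in severe segments, and stood at 4152 and 4624 with diabetes, in the authors' deposited tables. SLC7A7 has the same order of group means as the summed list.

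T cell and neutrophil lists were read in the same way. In the mean diabetes contrast 9 of 11 T cell genes were higher and 1 lower, with a median log2 difference of 1.19, beside 17.1% and 15.4% of all genes. Against mild segments none of the 11 was higher and 1 lower in moderate, and 1 higher and 1 lower in severe segments, with medians of 0.21 and 0.17. Over all genes 3.56% were higher and 1.08% lower in moderate, and 7.19% and 4.80% in severe segments. The lower gene with diabetes was CD8B, which made up most of the summed list in mild segments, 870 of 1032. That sum was 472 and 532 in moderate and severe segments and 497 and 477 with diabetes, in the authors' deposited tables. CD3E, a chain of the T cell receptor complex, had means of 12.3, 13.6 and 16.4 without diabetes and 32 and 30.4 with it in the authors' deposited tables. The neutrophil list summed to 94.6, 380 and 345 without diabetes and 915 and 785 with it in the authors' deposited tables, and all 5 of its genes tested in the mean diabetes contrast were higher. Of its 9 matched genes ELANE was at 0 in every group other than moderate without diabetes and MPO was at 0 in mild segments. The part of macrophages, T cells and neutrophils in the values of SLC7A7, SLC38A1, SLC38A2, SLC1A2, SLC36A1, SLC38A6, SLC6A8 and the other transporters that rose was not tested.

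Lists of heart muscle, fat, fibroblasts and lymphatic vessels had, like SLC1A1, SLC7A10, SLC38A3 and SLC7A9, their highest level in mild segments. The summed lists of endothelium, of Schwann cells and nerve, of T cells and of smooth muscle were highest there as well. The endothelial list summed to 7798 in mild segments and to 5826 to 6300 elsewhere. The Schwann cell and nerve list summed to 3071 in mild segments and to 1940 to 2893 elsewhere. Not every gene of these lists followed its sum, as ERG and MBP were lowest in mild segments. The summed heart muscle list was 150734 in mild, 43377 in moderate and 36820 in severe segments, and 3543 and 4917 in moderate and severe diabetic ones, in the authors' deposited tables. Against mild segments 0 of its 11 genes with an adjusted p were called lower in moderate segments, with a median log2 difference of -1.99, and 1 in severe ones, with a median of -2.12. The shares of all genes lower in these comparisons were 1.08% and 4.80%. With diabetes all 11 were lower in moderate segments, beside 8.46% of all genes, and 9 in severe ones, beside 4.92%. Of its 13 matched genes NPPA was at 0 in moderate diabetic segments.

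The summed adipocyte list was 8363 in mild, 4676 and 4732 in moderate and severe, and 2230 and 2856 in the diabetic groups, in the authors' deposited tables. None of its 8 genes was called against mild segments. In the mean diabetes contrast 5 of 7 were lower, beside 15.4% of all genes. The adventitial fibroblast list summed to 55861 in mild, 30060 in moderate and 26337 in severe segments, and 24750 and 33069 with diabetes, in the authors' deposited tables. Of its 9 genes 1 was lower in moderate and 7 in severe against mild segments, beside 1.08% and 4.80% of all genes. The lymphatic list summed to 2660 in mild and to 1190 to 1429 in the other groups of the authors' deposited tables. Of its 6 genes 2 were lower in moderate and 4 in severe against mild segments, beside the same 1.08% and 4.80% of all genes. None of the adipocyte, fibroblast or lymphatic genes was at 0 in a group mean. The part of these tissues in the values of SLC1A1, SLC7A10, SLC38A3 and SLC7A9 was not tested. The summed smooth muscle list was 126002 in mild segments and 89159 to 104832 in the other groups of the authors' deposited tables.

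**Figure D4:**
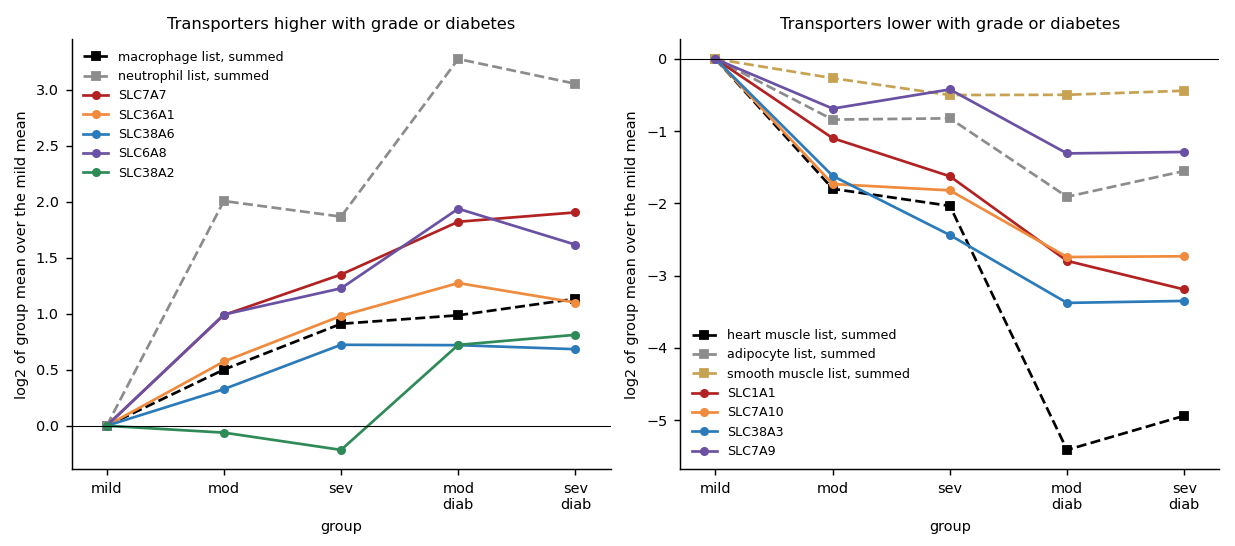
Log2 of each group mean over the mild mean, for transporters that were higher (left) or lower (right) in a comparison, as solid lines, with the summed means of marker lists as dashed lines. On the left the macrophage list and SLC7A7 rise in each successive group, while SLC38A2 lies below 0 until the diabetic groups. On the right the heart muscle list, 150734 in mild and 3543 in moderate diabetic segments, descends further than any of the 4 transporters shown.

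The enzymes and sensors that handle amino acids inside the cell were read as lists. Among the cytosolic tRNA synthetases, which load amino acids for translation, 6 of 19 were higher with diabetes in moderate and 5 in severe segments, and none was lower. The shares of all genes higher there were 8.20% and 5.75%. The glycine enzyme GARS rose by log2 0.41 ± 0.14 SE (adjusted p = 0.0243) in moderate and 0.68 ± 0.14 SE (adjusted p = 0.000241) in severe segments, per the authors' deposited tables. The cysteine enzyme CARS rose by log2 0.67 ± 0.17 SE (adjusted p = 0.00138) in moderate segments, per the authors' deposited table.

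The list of the amino acid response holds ATF4, the upstream kinases EIF2AK3 and EIF2AK4, and genes that they control. Of its 18 genes 4 were higher and 2 lower with diabetes in moderate segments, and 6 were higher and none lower in severe ones. Over all genes 8.20% were higher and 8.46% lower in moderate, and 5.75% and 4.92% in severe segments. CEBPB, a transcription factor, rose by log2 1.18 ± 0.18 SE (adjusted p = 3.09e-08) and by 1.03 ± 0.19 SE (adjusted p = 8.37e-06) in these, per the authors' deposited tables. TRIB3, which restrains ATF4, rose by log2 0.46 ± 0.17 SE (adjusted p = 0.0479) and 0.60 ± 0.18 SE (adjusted p = 0.0129), per the authors' deposited tables. ATF4 itself was called in the mean diabetes contrast at log2 0.46 ± 0.15 SE (adjusted p = 0.0112). STC2, a secreted glycoprotein, fell by 1.80 ± 0.43 SE on the log2 scale in moderate segments (adjusted p = 0.000703), per the authors' deposited table.

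Of other amino acid and lysosomal carriers, 8 of 11 were higher with diabetes in moderate segments and 4 in severe ones. The shares of all genes higher there were 8.20% and 5.75%. That list also holds the vesicular monoamine carriers SLC18A1 and SLC18A2. In severe against mild segments 7 of the 11 were higher, beside 7.19% of all genes. None was lower in these comparisons. MFSD12, which moves cysteine into the lysosome, rose by log2 2.05 ± 0.22 SE in severe against mild segments (adjusted p = 1.26e-18), per the authors' deposited table. CTNS, which lets cystine out of it, rose by log2 0.58 ± 0.16 SE in that comparison (adjusted p = 0.00603), per the authors' deposited table. The list of branched-chain catabolism had 4 of 15 lower and 1 higher with diabetes in moderate segments, and 2 lower and none higher in severe ones. Over all genes 8.46% were lower and 8.20% higher in moderate, and 4.92% and 5.75% in severe segments. The member that rose was BCAT1, the cytosolic first enzyme of that route (log2 0.83 ± 0.16 SE, adjusted p = 1.17e-05), and one that fell was ACAD8, a mitochondrial step of valine breakdown (log2 -0.80 ± 0.18 SE, adjusted p = 0.000394), per the authors' deposited tables. In severe segments BCAT1 had a log2 difference of 0.41 ± 0.16 SE (adjusted p = 0.0874), per the authors' deposited table.

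Of the other 4 lists the counts with diabetes were as follows. In the mTORC1 list 3 of 25 were higher and 1 lower in moderate segments, and 4 were higher in severe ones, among them RHEB, its activator (log2 0.37 ± 0.07 SE in moderate segments, adjusted p = 2.01e-05), per the authors' deposited table. Of the glutamine and glutamate enzymes 1 of 13 was higher and 2 lower in moderate segments and 3 higher and 1 lower in severe ones. Of the glutathione genes 2 of 10 were higher and 1 lower in moderate segments and none was called in severe ones, and of the serine, glycine and one-carbon genes 1 of 12 and 2 were lower. The counts of higher and lower genes in each list can be read against the 8.20% and 8.46% of all genes in moderate, and the 5.75% and 4.92% in severe segments.

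**Figure D5:**
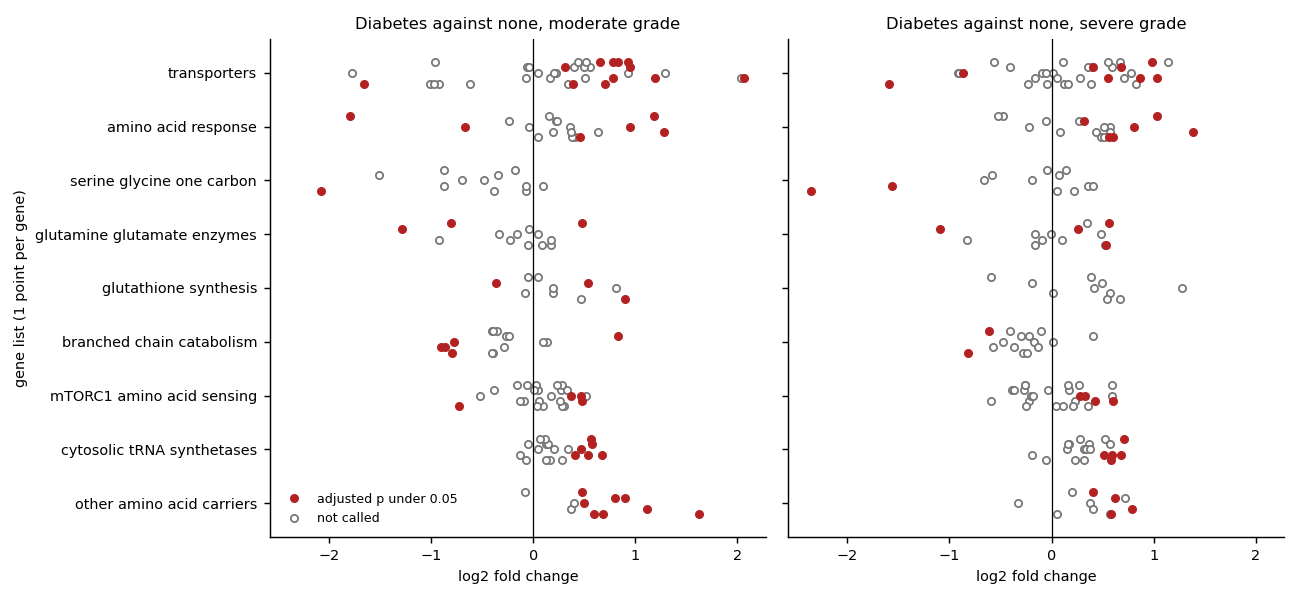
Log2 fold change of diabetes against no diabetes in moderate (left) and severe (right) segments, 1 point per gene with an adjusted p, for the transporters and 8 lists of related genes. Filled points have an adjusted p under 0.05. All filled points of the tRNA synthetases and of the list labelled other amino acid carriers, which also holds monoamine carriers, lie to the right of 0 in both grades.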

How the data were processed

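RNA-seq of 23 coronary segments was grouped by the library titles. The authors used DESeq2 and the genome build Sscrofa11.1, per the submitters' processing notes, and aligner, counter and annotation were not given in the sources used. The authors deposited 6 tables of 35252 lines, each with normalized group means (a signal from counts), a log2 fold change, its standard error and p-values, and in 3 tables a test score. In each, 24 lines held a date as name and were left out, and 5042 log2 fold changes were not numbers and were read as missing. Directions follow the log2 values, checked against group means.

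Group variances were solved from the standard errors of the 6 comparisons. From them 3 contrasts were tested with a two-sided Wald test and Benjamini-Hochberg adjustment over the 17493 genes averaging 10 or more, after a test on simulated data (Python 3.11.15, SciPy 1.17.1). A p recomputed from the deposited log2 fold change and error differed from the deposited p-value by at most 4.39e-15. Most genes are named where called, where among the highest 3 of a family, or by smallest p. Some others, such as SLC1A7, SLC38A4 and SLC6A7, are named outside that rule. The members and the 19 gene lists (256 entries, 23 not matched) were chosen with earlier results of these data known. Alternatives were other sets of genes for the adjustment, other minimum means, and recentring on the median gene.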

Additional observations from a re-analysis of the deposited data

How the results depend on the processing

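Of 27 recomputed counts of called members, 25 stayed within 1.5 times the value reported. These settings could not test directions, since other adjustments and minimum means leave a gene's log2 value unchanged. Recentring alone shifts it, by at most 0.08 in the deposited comparisons. The smallest log2 difference recomputed for a called transporter, 0.25 for SLC38A10 in the mean diabetes contrast, became 0.19 on recentring. Adjusted over all genes with a p, 2 members were called for moderate against mild segments in place of 4, both higher. Recentred on the median gene, 5 were called for diabetes in severe segments in place of 8, 3 of them higher and 2 lower. Of 144 recomputed calls of single transporters 126 were kept and 18 lost, 8 of these on recentring. Some were lost only because the gene's mean lies under the minimum tried, as for SLC38A3 and SLC6A12 at a minimum of 10. No member is a numbered copy, so leaving out numbered copies could change no call and is not counted here. No paired analysis was possible because the deposited columns are group means that carry no replicate, and leaving out each replicate in turn was not run for the same reason, so whether 1 library decides a call is unknown here. Depth limits the 16 members with a mean under 10.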

Other observations

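Of 57 reference symbols of these families 45 are members, 6 others stand in the tables under a LOC name and 6 were not analysed here. The 6 under a LOC name were looked up by gene identifier after the members' values were seen. SLC6A9, a glycine carrier, had means of 1.51, 3.90 and 3.74 without diabetes and 19.8 and 16.5 with it in the authors' deposited tables. It was higher with diabetes in moderate (log2 2.24 ± 0.50 SE, adjusted p = 0.00022) and in severe segments (log2 2.13 ± 0.50 SE, adjusted p = 0.00115), per the authors' deposited tables. SLC7A8, a light chain of SLC3A2, had means of 17.4, 22.7 and 36.8 without diabetes and 57.5 and 46.6 with it, and was higher with diabetes in moderate segments (log2 1.32 ± 0.47 SE, adjusted p = 0.0344) but not called in severe ones (log2 0.34 ± 0.48 SE, adjusted p = 0.722), per the authors' deposited tables. SLC6A4, the serotonin carrier, had means of 233, 189 and 150 without diabetes and 94.7 and 186 with it, and was lower with diabetes in moderate segments (log2 -1.0 ± 0.37 SE, adjusted p = 0.0436), per the authors' deposited tables. In severe segments its log2 difference was 0.32 ± 0.38 SE, and the difference of the 2 diabetes contrasts was log2 1.31 ± 0.53 SE with an unadjusted p of 0.0134 and an adjusted p of 0.999. SLC7A5, another light chain of SLC3A2, had means of 4.94, 8.84 and 7.05 without diabetes and 17 and 13.1 with it in the authors' deposited tables, and was not called with diabetes in moderate (log2 0.91 ± 0.51 SE, adjusted p = 0.229) or severe segments (log2 0.85 ± 0.54 SE, adjusted p = 0.335). SLC7A13 and SLC38A11 had group means of at most 5.32 and 2.07 in the authors' deposited tables, and neither was called.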
